A study of Homo sapiens with 6 samples.

Results

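The mRNAs of 10 glucose transporter genes were followed in high glucose in HK-2, an immortalised human cell line that comes from the proximal tubule of the kidney. The members were the rows of the deposited count table with the symbols SLC2A1, SLC2A2, SLC2A3, SLC2A6, SLC2A8, SLC2A10, SLC2A12, SLC2A13, SLC5A1 and SLC5A2, and they make up 10 of the 31831 genes listed. The study compared cells carrying a control construct without hnRNP-F (HG-NC, 3 libraries) with cells overexpressing hnRNP-F, an RNA-binding protein of the heterogeneous nuclear ribonucleoprotein family (HG-OE, 3 libraries). Both groups were grown in 30 mM glucose for 72 h, so none of the libraries used here shows these cells without high glucose. The study also sequenced cells in mannitol as an osmotic control, and those libraries were not analysed here. The labels name a control plasmid, and the study's methods describe a lentiviral vector. The study calls the 3 libraries of a group biological replicates, while its methods speak of parallel wells, so p-values measure the spread between these libraries, which may be technical.

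Glucose crosses cell membranes through 2 families of carriers. The SLC2A genes encode the facilitative GLUT proteins, which let glucose move down its gradient, and the SLC5A genes encode sodium-coupled carriers, of which SGLT1 and SGLT2 draw glucose from the urine into proximal tubule cells. In the kidney SGLT2 is the main carrier at the luminal side of the early proximal tubule, SGLT1 acts further along, and GLUT2 and GLUT1 release the sugar on the blood side.

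Among the members, SLC2A1 (GLUT1), SLC2A2 (GLUT2) and SLC2A3 (GLUT3) encode class I carriers of the cell surface. SLC2A6 (GLUT6), SLC2A8 (GLUT8), SLC2A10 (GLUT10) and SLC2A12 (GLUT12) are class III, and GLUT6 and GLUT8 are known mainly from membranes inside the cell. SLC2A13 encodes the proton-coupled myo-inositol carrier HMIT. SLC5A1 and SLC5A2 encode SGLT1 and SGLT2.

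Of the 5 members whose mRNA differed between the groups, 4 have an entry in the RefSeq promoter table (GRCh38.p14), and the 250 bases before their start sites are printed here, 5′ to 3′ on the gene's strand, because the comparison turns on these genes. Capitals mark the GC box GGGCGG on either strand, the core letters bound by SP1-type factors.
SLC2A1, chr1:42958869-42959118, strand -: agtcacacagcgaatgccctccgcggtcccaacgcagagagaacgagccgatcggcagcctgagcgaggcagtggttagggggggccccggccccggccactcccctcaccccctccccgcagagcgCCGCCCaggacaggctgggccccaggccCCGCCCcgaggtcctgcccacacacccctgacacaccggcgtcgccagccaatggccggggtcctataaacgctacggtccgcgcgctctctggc
SLC2A8, chr9:127396919-127397168, strand +: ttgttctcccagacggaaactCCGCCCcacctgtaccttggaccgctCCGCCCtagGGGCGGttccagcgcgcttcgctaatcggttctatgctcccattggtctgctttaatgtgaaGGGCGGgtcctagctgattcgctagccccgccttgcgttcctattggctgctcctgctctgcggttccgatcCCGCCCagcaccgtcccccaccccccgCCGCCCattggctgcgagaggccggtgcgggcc
SLC2A10, chr20:46709399-46709648, strand +: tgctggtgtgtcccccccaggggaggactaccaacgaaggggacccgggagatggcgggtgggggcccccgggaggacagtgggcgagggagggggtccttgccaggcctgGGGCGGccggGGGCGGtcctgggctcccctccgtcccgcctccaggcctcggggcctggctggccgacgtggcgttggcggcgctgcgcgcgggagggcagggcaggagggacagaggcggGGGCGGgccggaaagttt
SLC2A13, chr12:40106082-40106331, strand -: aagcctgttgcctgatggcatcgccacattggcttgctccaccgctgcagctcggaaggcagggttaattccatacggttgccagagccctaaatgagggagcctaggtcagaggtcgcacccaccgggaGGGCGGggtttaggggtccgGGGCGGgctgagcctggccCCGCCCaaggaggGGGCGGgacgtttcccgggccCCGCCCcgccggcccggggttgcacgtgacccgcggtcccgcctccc
The printed stretches hold 2, 6, 3 and 5 GC boxes for SLC2A1, SLC2A8, SLC2A10 and SLC2A13. At least 1 GC box was found in 7 of the 9 members with an entry and in 42.6% of 35116 promoters of the same length. The SLC2A1 stretch is the only one of the 9 with TATAAA, which starts 31 bases before the start site, and 10.7% of all promoters hold those letters. The E-box CACGTG was found in SLC2A13 alone, 25 bases before its start, against 6.34% of all promoters. The letters ACGTG (which lie inside CACGTG) and GCGTG, cores of the hypoxia response element, were found in 2 members each, against 18.5% and 32.2% of all promoters. Both strands were searched for each set of letters, and a match is a description of the letters only.

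The libraries held 25507595 to 29444841 counted reads. HNRNPF itself had 7733 to 8692 counts in HG-NC and 12397 to 13155 in HG-OE. In edgeR's quasi-likelihood fit, with p adjusted by Benjamini-Hochberg over 17142 genes, this was a log2 fold change of 0.48 with standard error 0.0388 and adjusted p = 2.80e-07. HG-OE replicate 3 stood apart from the other libraries. All 18 liver markers on a fixed list had at least 10 counts there, against 14 in HG-NC replicate 3 and 4 or 5 in each of the others, and their summed level was 896 CPM (counts scaled to library size and by TMM), against 464 to 465 in the other HG-OE libraries and 269 to 279 in HG-NC. SERPINA1 alone held 457, 458 and 395 CPM in HG-OE replicates 1, 2 and 3 and 258 to 275 CPM in HG-NC. It made up most of the sum in every library but HG-OE replicate 3. Of 14 squamous epithelium markers, 12 had at least 10 counts in that library and 3 or 4 in each of the others, with summed levels of 96.5 CPM against 16.6 to 20.6. HG-NC replicate 3 also held counts of liver genes that were near 0 in the other HG-NC libraries, with 78 counts of ALB against 4 and 1. KRT5 and KRT6A had 334 and 274 counts in HG-OE replicate 3 and were at 0 in the other 5 libraries. Of the markers tested, 4 of 5 liver genes rose (2 without HG-OE replicate 3), 0 of 3 squamous genes passed in edgeR (1 at an unadjusted p under 0.05), and 1 of 10 proximal tubule genes rose and 2 fell (0 and 2 without HG-OE replicate 3). Beside these counts, 25.9% of all 17142 genes tested rose and 25.9% fell at an adjusted p under 0.05 in edgeR. The part of this RNA in the results was not tested. Without HG-OE replicate 3, and likewise without HG-NC replicate 3, the members still gave 3 rises and 2 falls at an adjusted p under 0.05 in edgeR. Proximal tubule markers were uneven. PAX8 was well counted, while LRP2 was at 0 in 5 libraries, AQP1 had at most 7 counts in a library, and SLC7A9 had at most 2. In bulk RNA, fewer cells of a type and less RNA per cell cannot be told apart.

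Most transporter transcripts in these cells in 30 mM glucose came from SLC2A1. Levels between genes were compared as FPKM, the deposited count of fragments scaled to transcript length and to library depth. SLC2A1 (ENSG00000117394.24, GRCh38 chromosome 1, 42925353 to 42958893) had 76.8, 80.4 and 80.7 FPKM in the 3 HG-NC libraries, in replicate order. It was followed by SLC2A6 (ENSG00000160326.14, chromosome 9, 133471094 to 133479127) with 15.1, 16.4 and 15.7 FPKM. SLC2A1 was thus 5.04 times the next member, and no library of either gene came near the other. SLC2A3 (ENSG00000059804.16, chromosome 12, 7919230 to 8019007), the GLUT of high glucose affinity known from neurons, had 5.48, 5.42 and 5.14 FPKM.

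The other members in HG-NC lay below these. SLC2A8 (ENSG00000136856.18, chromosome 9, 127397138 to 127408424) had 2.81 ± 0.235 FPKM and SLC2A13 (ENSG00000151229.13, chromosome 12, 39755025 to 40106089) had 1.12 ± 0.0603 (mean ± SD, n = 3). SLC5A2 (ENSG00000140675.13, chromosome 16, 31483002 to 31490860) had 0.763 ± 0.175 FPKM and SLC2A10 (ENSG00000197496.6, chromosome 20, 46709649 to 46736347) had 0.73 ± 0.0819, and these neighbours in the order overlapped. SLC2A12 (ENSG00000146411.6, chromosome 6, 133987581 to 134052624), the GLUT12 gene, had 0.08 ± 0.0265 FPKM. The ranges of SLC2A12 and SLC2A2 overlapped, and down to SLC2A13 each member lay above the next in every HG-NC library.

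SLC5A1 and SLC2A2 were close to absent from the counts. SLC5A1 (ENSG00000100170.10, chromosome 22, 32043261 to 32113029) had 1 count in all 6 libraries, in HG-OE replicate 3. Where it was at 0, a true level of up to 3 counts, or 0.103 to 0.118 CPM in those libraries, cannot be told from 0 (counting error only). SLC2A2 (ENSG00000163581.14, chromosome 3, 170996347 to 171026743) had 4, 0 and 6 counts in HG-NC and 3, 1 and 0 in HG-OE. SLC2A2 is also the glucose carrier of hepatocytes. In the same replicate order, the liver gene ALB had 4, 1 and 78 counts in HG-NC and 0, 1 and 4359 in HG-OE. Whether SLC2A2 followed ALB was not tested, and its counts are too few to show it. Neither SLC5A1 nor SLC2A2 passed the low-count filter, so a difference between the groups was not detectable at this depth.

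**Figure D1:**
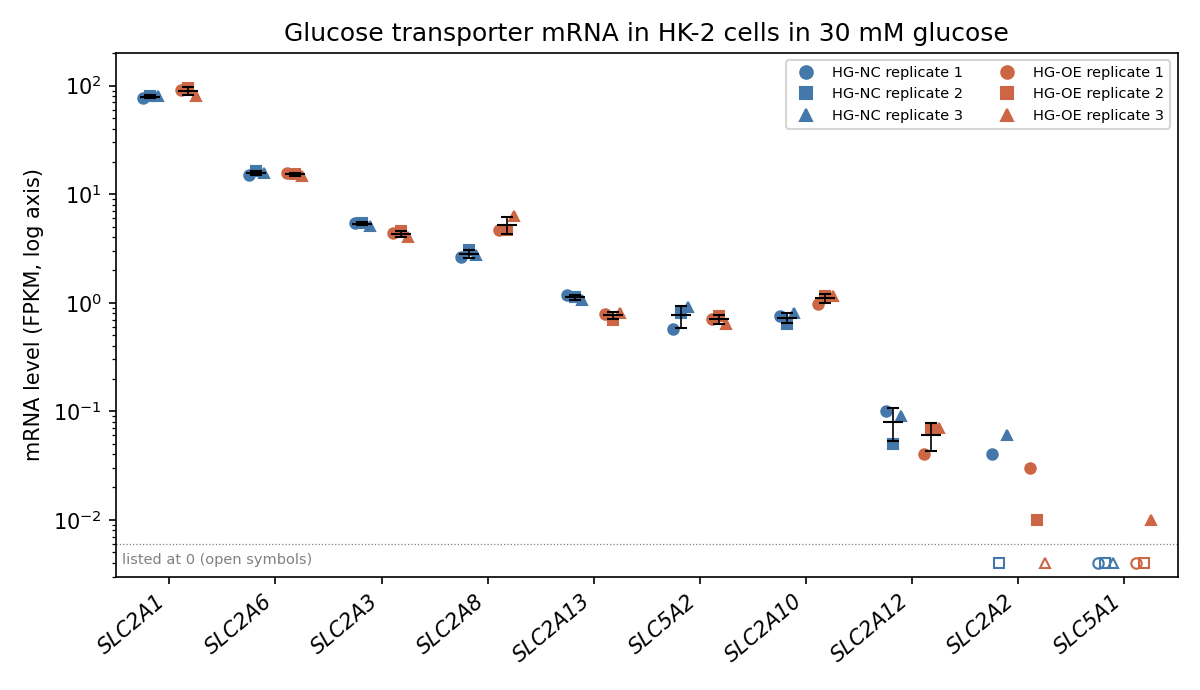
mRNA level of the 10 members in FPKM on a log axis, ordered by the HG-NC mean, with 1 symbol per library and the mean ± SD of 3 libraries where its lower end is above the dotted line. SLC2A1 sits near 80 FPKM in HG-NC, 5.04 times SLC2A6, and SLC5A1 is listed at 0 in 5 libraries (open symbols).

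As shares of the summed FPKM of the 10 members, SLC2A1 held 74.8%, 74.5% and 75.3% in HG-NC replicates 1, 2 and 3. SLC2A6 held 14.9% ± 0.312 and SLC2A3 5.05% ± 0.275 (mean ± SD, n = 3). Counting only the class I and sodium-coupled members (SLC2A1, SLC2A2, SLC2A3, SLC5A1 and SLC5A2), SLC2A1 held 92.8% ± 0.157 in HG-NC and 94.6% ± 0.0749 in HG-OE, and the groups did not overlap (two-sided exact permutation p = 0.1, and 3 libraries against 3 cannot go lower). By mRNA, then, the carrier of the cell surface with the most transcript in 30 mM glucose was GLUT1, followed by GLUT3. Which carrier takes up the glucose cannot be read from these levels, since uptake, protein and place in the membrane were not measured.

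The counts of some members carry a limit from the annotation. SLC2A14 is a near-identical copy of SLC2A3, and only uniquely mapped reads were counted, so reads shared by the pair may be missing from SLC2A3. SLC2A14 itself had 9 to 14 counts. Of the exon bases of SLC5A2, 31.1% overlap RUSF1 on the opposite strand, a gene with 1688 to 1934 counts. Of those of SLC2A12, 51.2% overlap TBPL1, with 507 to 672 counts. The kit marks the strand, but whether the counting used it is not given in the sources used here, so part of the few counts of SLC5A2 and SLC2A12 may belong to these neighbours.

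Between HG-OE and HG-NC, 3 members rose, 2 fell and 3 did not pass the test. Over all genes tested, 25.9% rose and 25.9% fell. SLC2A8, SLC2A10 and SLC2A1 were higher in HG-OE, and SLC2A13 and SLC2A3 were lower. The rises of SLC2A8 and SLC2A10 were 1.89-fold and 1.51-fold, while SLC2A1, the most abundant member, rose by only 1.14-fold. The test was the quasi-likelihood test of edgeR, and "rose" or "fell" stands for an adjusted p under 0.05. The 5 of 8 tested members that passed stand beside 51.8% of all 17142 genes tested, so the share among the transporters was near the background. None of the 8 reached the study's threshold of a 2-fold change at that adjusted p, which 5.82% of all genes tested did (3.69% higher and 2.13% lower). The same 0 was found with DESeq2 and limma, and 5 of the 8 had an unadjusted p under 0.05 in edgeR. The groups did not overlap for 5 of the 8 members and for 59.0% of all genes tested. The median log2 fold change of the 8 was -0.073, against 0.011 for all genes tested.

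SLC2A8, which encodes GLUT8 of intracellular membranes, changed most. Its level was 11.5, 13.5 and 11.9 CPM (TMM-scaled) in the HG-NC libraries and 20.8, 21.0 and 28.2 in the HG-OE libraries. Every HG-OE library was above every HG-NC library, and HG-OE replicate 3, the library with liver and squamous markers, was the highest. The change in log2 units was 0.92 ± 0.115 (SE; edgeR, adjusted p = 1.62e-05), and without HG-OE replicate 3 it was 0.76. By FPKM, SLC2A8 went from below SLC2A3 in every HG-NC library to above it in every HG-OE library, at 5.26 ± 0.938 against 4.33 ± 0.29 (mean ± SD).

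SLC2A10, the GLUT10 gene, whose loss causes arterial tortuosity in people, had 4.09, 3.47 and 4.33 CPM in HG-NC and 5.34, 6.35 and 6.32 CPM in HG-OE. The groups did not overlap. In log2 units it rose by 0.60 ± 0.139 (SE; edgeR, adjusted p = 0.00256), and 0.51 to 0.67 with each library left out in turn. By FPKM it passed SLC2A13 in the order, with 1.10 ± 0.104 in HG-OE against 0.767 ± 0.0586 for SLC2A13, while the order in HG-NC was the reverse.

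SLC2A1 had 569, 595 and 594 CPM in HG-NC and 678, 715 and 604 in HG-OE. All HG-OE libraries were above all HG-NC libraries, but HG-OE replicate 3 was only just so. The log2 fold change was 0.18 (95% interval 0.071 to 0.30, adjusted p = 0.00944, edgeR). The call did not hold without HG-NC replicate 1 (0.16, adjusted p = 0.0511) or without HG-OE replicate 2 (0.13, adjusted p = 0.0584), and without HG-OE replicate 3 the value was 0.25. It was also missed by limma on FPKM, where the log2 fold change was 0.16. Among 162 neighbours (genes with a mean of at least 100 counts and within 10 Mb), the median change was 0.076 in log2 units, and with it removed SLC2A1 stood at 0.11.

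SLC2A13, the myo-inositol carrier gene, fell from 13.3, 12.7 and 11.9 CPM in HG-NC to 8.89, 7.97 and 9.22 CPM in HG-OE. The highest HG-OE library lay below the lowest HG-NC library. The change in log2 units was -0.54 ± 0.0963 (SE; edgeR, adjusted p = 3.67e-04). Its 78 neighbours had a median of 0.0062.

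SLC2A3 had 37.3, 36.9 and 34.7 CPM in HG-NC and 29.9, 31.6 and 27.5 in HG-OE, again with no overlap. The change was -0.29 ± 0.0625 in log2 units (SE; edgeR, adjusted p = 0.00150). Without HG-OE replicate 3, SLC2A13 stood at -0.58 and SLC2A3 at -0.24. SLC2A8, SLC2A10, SLC2A13 and SLC2A3 kept an adjusted p under 0.05 with each library left out in turn.

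**Figure D2:**
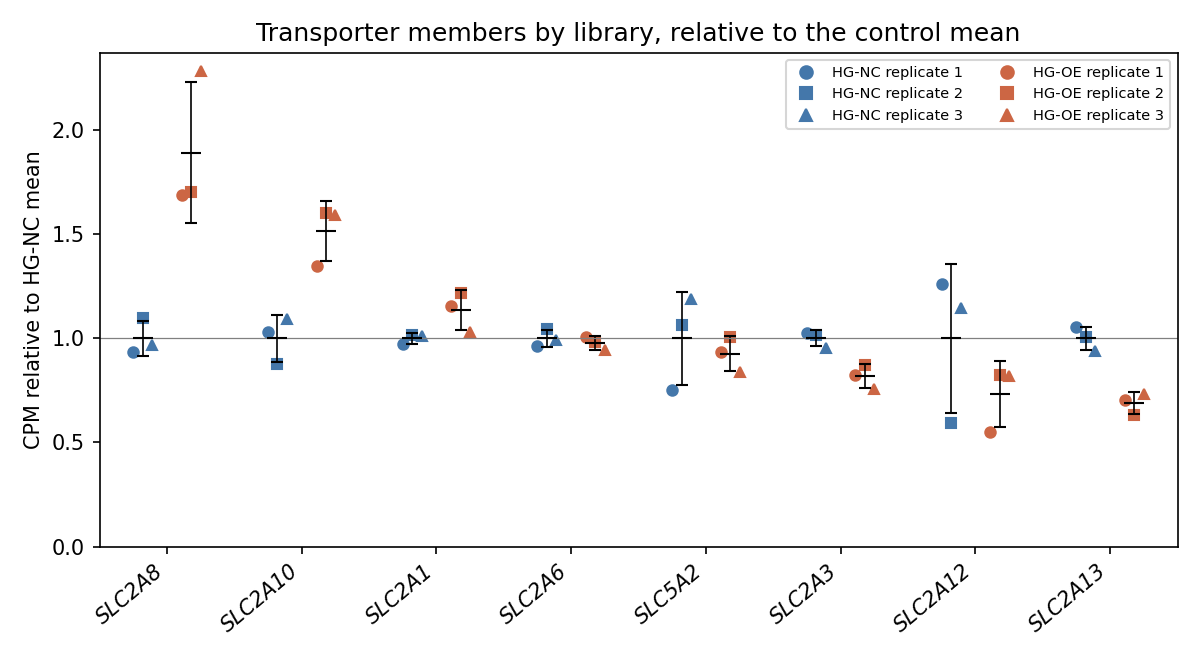
CPM of the 8 tested members in each library divided by the member's HG-NC mean, with 1 symbol per library and black marks for the mean ± SD of 3 libraries. The groups are apart for SLC2A8, SLC2A10, SLC2A1, SLC2A3 and SLC2A13 and overlap for SLC2A6, SLC5A2 and SLC2A12.

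The other tested members did not pass. SLC2A6, the second most abundant, had 59.7, 64.9 and 61.7 CPM in HG-NC and 62.4, 61.2 and 58.5 in HG-OE. Its groups overlapped, and the log2 fold change of -0.033 had a 95% interval from -0.14 to 0.073. Its neighbours had a median of 0.13, and with it removed SLC2A6 stood at -0.16, outside that interval. SLC5A2, the SGLT2 gene, had 73, 110 and 127 counts in HG-NC and 104, 112 and 94 in HG-OE. Its log2 fold change was -0.11 with a 95% interval from -0.50 to 0.27. With the neighbours' median of 0.18 removed, SLC5A2 stood at -0.30. SLC2A12 had 8 to 16 counts per library in both groups, and its interval ran from -1.32 to 0.44 on the log2 scale.

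**Figure D3:**
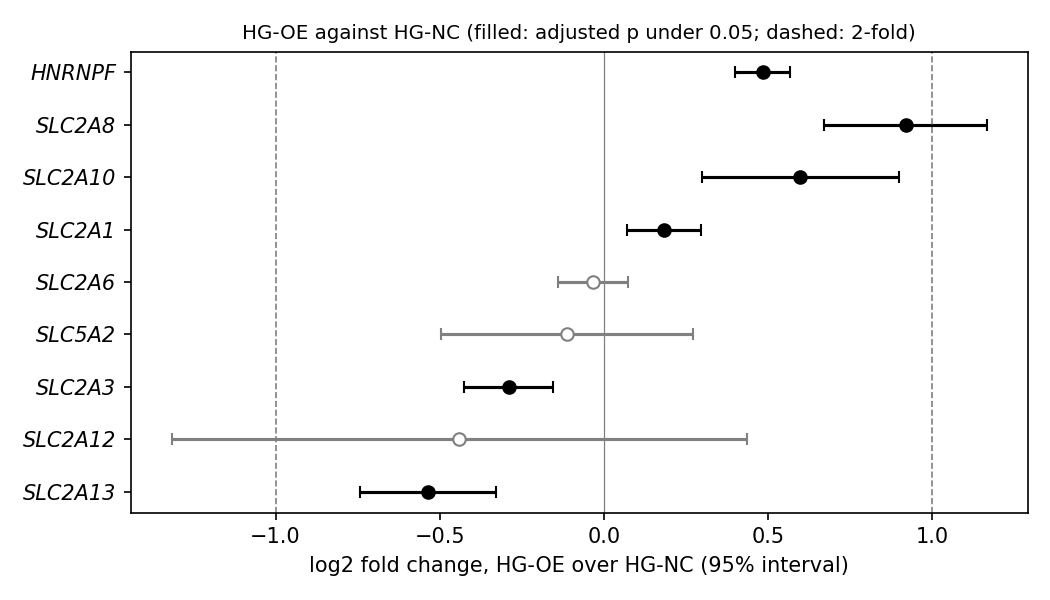
Log2 fold change of HG-OE over HG-NC with its 95% interval from the edgeR fit, for HNRNPF and the 8 tested members; filled points have an adjusted p under 0.05 and dashed lines mark a 2-fold change. SLC2A8 at 0.92 lies nearest to 2-fold, and the interval of SLC2A12 is the widest.

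The summed FPKM of the 10 members was 102.6, 108.0 and 107.2 in HG-NC and 118.7, 122.3 and 108.5 in HG-OE. The HG-OE mean was 1.10 times the HG-NC mean (two-sided exact permutation p = 0.1), and 1.14 times without HG-OE replicate 3. The share held by SLC2A1 was 76.9%, 77.7% and 74.5% in HG-OE and overlapped that in HG-NC (exact permutation p = 0.4).

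The remaining members of the gene families were read from a fixed list. Of 6 other SLC2A genes, 5 were tested, 2 rose and none fell, with a median log2 fold change of -0.17. The 2 that changed were 40.0% of those tested, beside 51.8% of all genes. SLC2A5, the fructose carrier GLUT5, had 18, 28 and 23 counts in HG-NC and 70, 66 and 43 in HG-OE. This was 1.25 in log2 units (edgeR, adjusted p = 0.00129). It rose past 2-fold, though at levels of at most 0.32 FPKM. SLC2A11 rose by a log2 fold change of 0.88 (adjusted p = 4.33e-07), from 13.4 ± 0.557 to 24.6 ± 1.35 CPM (mean ± SD, n = 3). Its 144 neighbours had a median of 0.29, and with it removed SLC2A11 stood at 0.59. SLC2A4, the insulin-responsive GLUT4 gene, had 38 to 59 counts and a log2 fold change of -0.21, which did not pass the test. Of 10 other SLC5A genes, 2 were tested, and SLC5A3, a sodium-coupled myo-inositol carrier induced by high osmolarity, fell with a log2 fold change of -0.28 (adjusted p = 7.24e-04). Its neighbours had a median of -0.20, and with it removed SLC5A3 stood at -0.077. Counts of calls in both lists were the same without HG-OE replicate 3.

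Of 4 further sugar carriers, 2 rose and none fell, with a median log2 fold change of 0.46. Over all genes tested, 51.8% changed and 25.9% rose, so the share of these 4 that changed was near the background. Whether the list shifted as a whole was not tested. SLC37A4, which moves glucose 6-phosphate into the endoplasmic reticulum, rose by a log2 fold change of 0.71 and SLC50A1, a sugar carrier of the SWEET family, by 0.33. Glucose that has entered is held in the cell by hexokinases. Of 9 genes for hexose phosphorylation and its reversal, 5 were tested, 2 rose and 1 fell, with a median log2 fold change of 0.094. The 3 that changed were 60.0% of those tested, beside 51.8% of all genes. HK2 fell from 43.3 ± 3.12 to 34.6 ± 0.741 CPM (mean ± SD, n = 3), or -0.33 in log2 units. Its neighbours had a median of -0.26, and with it removed HK2 stood at -0.066. ADPGK, an ADP-dependent glucokinase, rose by 0.21. HKDC1 rose by 0.13, a call that held in 2 of 6 fits with 1 library left out. Without HG-OE replicate 3, 3 genes of this list rose and 1 fell, the added rise being that of G6PC3 at 0.15.

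Genes that act on the transporters were read from a fixed list as well. Of 18 on it, 15 were tested, 8 fell and 2 rose, with a median log2 fold change of -0.14, and none passed the 2-fold threshold. The 10 that changed were 66.7% of those tested, beside 51.8% of all genes, and the counts were the same without HG-OE replicate 3. TXNIP, an arrestin-domain protein that takes GLUT1 off the cell surface and whose gene is induced by glucose, had 493, 442 and 457 CPM in HG-NC and 268, 239 and 201 in HG-OE. The change was -0.98 ± 0.0781 in log2 units (SE; edgeR, adjusted p = 2.77e-07), and -0.87 without HG-OE replicate 3. ARRDC4, a related arrestin-domain gene that responds to glucose too, had 23.9, 23.8 and 21.7 CPM in HG-NC and 13.8, 11.3 and 10.6 in HG-OE, a change of -0.96 in log2 units. Both genes are known targets of the glucose-sensing factor MondoA, encoded by MLXIP, which works with MLX. MLXIP rose by 0.39 and MLX fell, with a log2 fold change of -0.36, which was -0.13 with the median of its neighbours removed.

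HIF1A and MYC encode factors known to induce SLC2A1. HIF1A fell from 1150 ± 18.7 to 656 ± 42.6 CPM and MYC from 528 ± 7.56 to 343 ± 13.2 (mean ± SD, n = 3), with log2 fold changes of -0.81 and -0.62. PDZK1IP1, an accessory subunit of SGLT2, rose from 769 ± 16.9 to 1030 ± 47.8 CPM, a log2 fold change of 0.42 (adjusted p = 1.17e-06, edgeR). Its level of 469 to 489 FPKM in HG-NC stood beside 0.57 to 0.91 FPKM for SLC5A2.

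**Figure D4:**
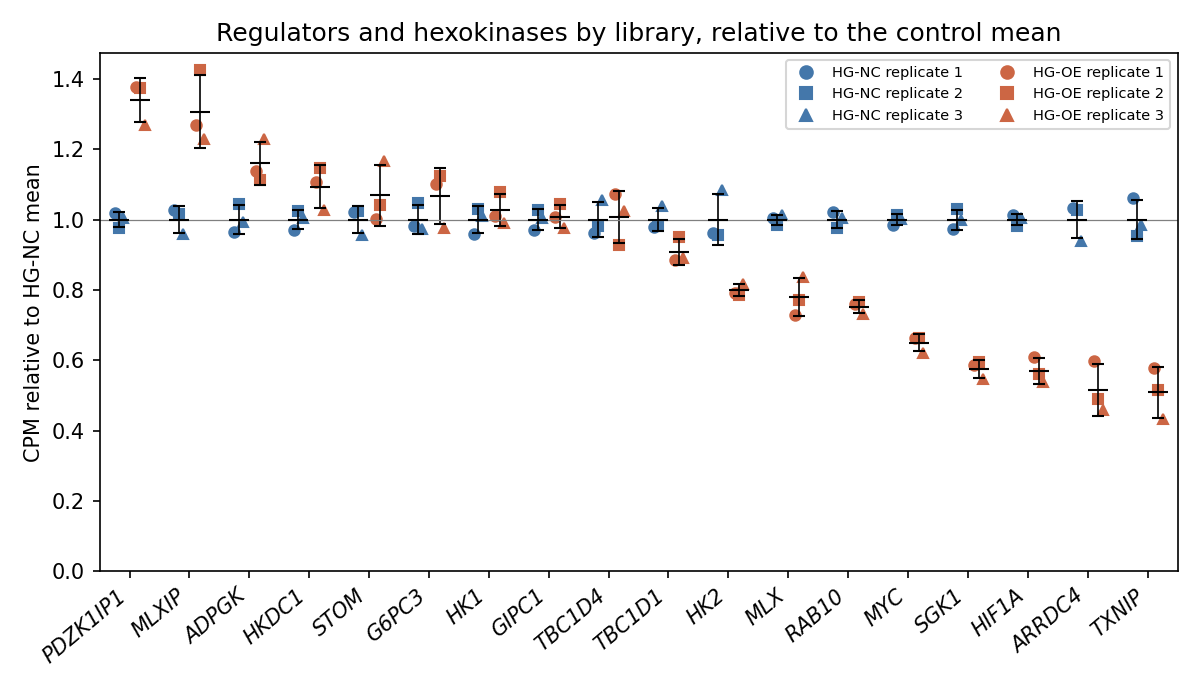
CPM relative to the HG-NC mean for tested regulators and hexose phosphorylation genes with a mean of at least 100 counts, with 1 symbol per library and the mean ± SD of 3 libraries. Some of the genes shown are not named in the text. By their HG-OE means TXNIP and ARRDC4 lie lowest and PDZK1IP1 highest, each apart from the HG-NC libraries.

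The log2 CPM profile of SLC2A1 over the 6 libraries, centred on its own mean, was compared with those of 12364 other genes with a mean of at least 100 counts. The smallest root mean square differences were those of TAF6 (0.0164), COL4A2 (0.019) and GRN (0.0207). In all, 16 genes, these included, lay within 2 times the smallest. The 3 were chosen for likeness over these same libraries. That HG-OE replicate 3 is their lowest HG-OE library, as for SLC2A1, therefore follows from the choice.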

How the data were processed

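HK-2 cells in high glucose were sequenced as 3 HG-NC and 3 HG-OE poly(A) libraries with a directional kit. Per the study's methods, the authors trimmed the reads with FASTX-Toolkit, used HISAT2 for alignment (GRCh38) and counted those mapped uniquely. The deposited counts are whole numbers per gene. FPKM values with 2 decimals, computed by the authors, were deposited beside the counts. ComBat_seq is named for batch correction, and whether it entered these tables is not stated.

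The main test was edgeR 4.0.16 under R 4.3.3 (default low-count filter, TMM, quasi-likelihood test, Benjamini-Hochberg adjustment over 17142 genes); DESeq2 1.42.0 and limma 3.58.1 were alternatives. Standard errors are the log2 fold change over the root of the F statistic. Libraries held 25507595 to 29444841 counts, and limits from counts cover counting error only. Positions come from GENCODE 44, which placed 31725 of 31831 genes. The steps were tested on simulated data.

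The members, the lists and the rule for named genes (members, HNRNPF, the largest rise and fall of each list, genes listed at 0, the 3 nearest profiles) were chosen with earlier results of these data known. Other listed genes named were chosen after their values were seen. Some genes counted in the lists are not reported here by name. Mannitol libraries were not analysed here.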

Additional observations from a re-analysis of the deposited data

How the results depend on the processing

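The members at an adjusted p under 0.05 numbered 4 or 5 in every fit tried, and 0 reached 2-fold in any of them. SLC2A3, SLC2A8, SLC2A10 and SLC2A13 kept their direction and their call in each fit that tested them. SLC2A1 kept its direction and lost its call in 5 fits, namely without HG-NC replicate 1, without HG-OE replicate 2 and in the 3 limma fits on FPKM, where its adjusted p was 0.0683 to 0.142; the cause was not tested. SLC2A6 turned from -0.033 to 0.0010 without HG-NC replicate 2 (range -0.058 to 0.0010 with each library left out in turn), and SLC5A2 turned from -0.11 to 0.034 without HG-NC replicate 3 (range -0.28 to 0.034), neither past the threshold. Over all genes, those called with at least a 2-fold change numbered 997. There were 1539 without the low-count filter and 617 with at least 10 counts in every library. Limma gave 724 on log2(FPKM + 0.1), 144 on log2(FPKM + 1) and 138 on log2(FPKM + 1) without a filter. The genes tested in these fits numbered 17142, 31831, 15645, 19242, 19242 and 31643, in the same order. The fits that gave 724 and 144 differed only in the constant added to FPKM. Why the other numbers differ was not tested. The replicate numbers of the labels did not pair the libraries. Deviations of same-numbered libraries correlated at -0.027, 0.030 and -0.0010. With the replicate number as a block, 5 members passed the test, 0 were called at 2-fold, 990 genes were called at 2-fold, and 0 of 56 listed genes changed their call. The depth limits SLC5A1, SLC2A2 and SLC2A12, which had 1, 14 and 72 counts over the 6 libraries.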

Other observations

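Some sodium-coupled carrier genes and a few proximal tubule genes were counted almost only in HG-OE replicate 3. This was not particular to them, since 60 genes of the series had more than 20 counts in that library and 0 in the other 5. SLC5A9 and SLC5A12, carriers of sugars and of lactate, had 12 and 13 counts in that library and 0 in the other five. HNF4A, a transcription factor of the proximal tubule, liver and gut, had 323 counts there and 0 elsewhere. LRP2, the megalin gene, had 17 counts there and 0 elsewhere, and ANPEP had 54 against 0 to 4. Some other carrier and proximal tubule genes were lowest in that library, where CUBN had 10 counts against 13 to 16 in the others, SLC13A3 had 11 against 14 to 22, and SLC5A11 had 0 against 2 to 11. SLC5A2 itself, with 94 counts in that library against 104 and 112 in the other HG-OE libraries, was not higher there. These genes were chosen after their values were seen, and no test was run on them.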
